A study of Bos taurus with 6 samples.

Results

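The genes that write, copy, remove and read DNA methylation were examined in fibroblasts from fat-1 transgenic and wild-type cattle fetuses. They were DNMT1, DNMT3A, DNMT3B, TET1, TET2, TET3, UHRF1, TDG, MBD2 and MBD3, taken from the gene expression table by their symbols for their known roles. They are 10 of the 17663 genes in that table, and all 10 had enough reads to be tested.

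RNA was measured in bovine fetal fibroblasts (bEFs) from 3 fat-1 transgenic fetuses (FT_1, FT_2 and FT_3) and 3 fetuses of wild-type Luxi cattle (WT_1, WT_2 and WT_3), with 1 poly(A) library per fetus. The product of fat-1, a desaturase of the nematode Caenorhabditis elegans, makes n-3 polyunsaturated fatty acids out of n-6 ones. Both groups were taken at 50 to 60 days. Primary cultures were grown from collagenase-digested fetal tissue that excluded bone, viscera, head and limbs. The comparison of FT with WT cells addressed how the transgene affects energy metabolism and DNA methylation. The breed of the transgenic fetuses, the promoter of the transgene, the passage number and the sex of the fetuses are not given in the sources used here, so breed or line cannot be told apart from genotype. The starting tissue held many kinds of cells, and the cultures were not sorted.

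DNA methyltransferases add methyl groups to cytosines that precede a guanine. DNMT3A and DNMT3B set new marks, whereas DNMT1, led to newly copied DNA by UHRF1, restores them after each round of replication. TET enzymes oxidise the methyl group, the glycosylase TDG cuts out the most oxidised forms for base excision repair, and MBD proteins link methylated DNA to repressor complexes such as NuRD.

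The total count per library was 63366834, 48167642 and 54204446 in FT_1, FT_2 and FT_3, and 69777641, 51310741 and 54271927 in WT_1, WT_2 and WT_3. Levels are given as FPKM, fragments scaled by gene length and library total, which allows genes of different length to be compared. Fold changes are FT over WT on the log2 scale from edgeR's quasi-likelihood test on the counts, with the standard error (SE) and a p adjusted by the Benjamini-Hochberg method over 13482 genes. A gene was called changed at an adjusted p under 0.05. Each fetus is a replicate (n = 3 per group).

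FT_1 stood apart from the other FT libraries. Over all tested genes, the SD of the log2 ratio between a pair of libraries was 1.40 for FT_1 and FT_2 and 1.41 for FT_1 and FT_3, against 0.51 for FT_2 and FT_3 and 0.45 to 0.53 between WT libraries. Over the 10 genes described here this SD was 0.32 for FT_1 and FT_2, 0.39 for FT_1 and FT_3 and 0.36 for FT_2 and FT_3. In these genes FT_1 thus did not stand apart from the other FT libraries. Against the WT libraries the SD was 0.87 to 1.19 for FT_1, 0.61 to 0.97 for FT_2 and 0.72 to 1.08 for FT_3. It was 0.15 for WT_1 and WT_3, but 0.48 for WT_1 and WT_2 and 0.59 for WT_2 and WT_3. FT_1 also carried RNA of keratin genes that serve here as epithelial markers. KRT5 reached 171.54 FPKM in FT_1, with 2.57 and 1.63 in FT_2 and FT_3, and was 0 in each WT library, as were KRT8 and KRT18. The fold changes of the 10 genes and the counts for each gene list are therefore also given without FT_1.

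With all 6 libraries, 3 of the 10 genes were higher in FT cells (TET2, TET3 and MBD3), where 20.1% of all tested genes were called higher. Only UHRF1 was called lower, where 18.9% of all tested genes were called lower. The other 6 genes did not pass the test. Without FT_1, DNMT3A was called higher as well and MBD2 lower, which made 4 higher and 2 lower, but 30.6% of 13765 tested genes were then called higher and 31.5% lower. Without WT_1, TET2 alone was called higher, where 11% of all tested genes were called higher. The shares of the 10 genes that changed were thus not far from those of all genes, and the account that follows is of single genes. The median log2 fold change of the 10 genes was 0.29, against 0.03 for all tested genes. Counts of higher and lower genes depended on scaling. Of all called genes, 51.6% were higher with TMM scaling and 37.6% when only the total count was used.

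**Figure D1:**
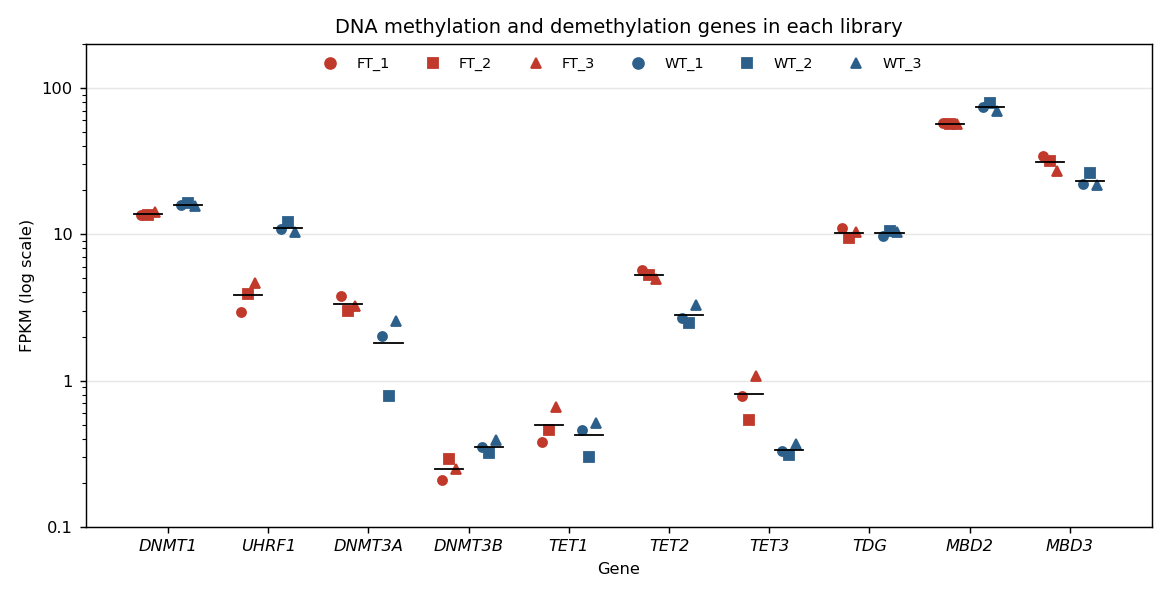
FPKM of each of the 10 genes (log axis) in each library, with FT libraries in red, WT libraries in blue, a marker shape for each replicate number and a black line at the group mean. MBD2 lies highest, between 56.4 and 79.1, while DNMT3B, TET1 and TET3 lie near or under 1 FPKM in every library.

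UHRF1 (ENSBTAG00000002224, chromosome 7, 19223877 to 19257053 in the authors' table) binds hemimethylated DNA behind the replication fork and recruits DNMT1. Its FPKM was 2.95, 3.93 and 4.68 in FT_1, FT_2 and FT_3, and 10.84, 12.09 and 10.43 in WT_1, WT_2 and WT_3. Every FT library lay under every WT library, with FT_1 the lowest. UHRF1 fell by 1.37 on the log2 scale (SE 0.19, adjusted p = 0.00341 in edgeR), by estimate the largest change among the genes that write or copy the mark. Without FT_1 it fell by 1.20 (SE 0.11, adjusted p = 1.1e-05). These are cell mixtures measured in bulk, in which a lower value can mean fewer cells of a type or less RNA per cell, and the values cannot tell these apart.

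DNMT1 (ENSBTAG00000002736, chromosome 7, 14686995 to 14730720), the enzyme that copies methylation onto new strands, had an FPKM of 13.47, 13.57 and 14.2 in the FT libraries and 15.78, 16.37 and 15.59 in the WT libraries. On this scale all FT values lay a little under all WT values. After TMM scaling the groups overlapped, with 79.0 to 86.0 CPM, counts scaled to a common library total, in FT cells and 83.6 to 87.5 in WT cells. The log2 fold change of DNMT1 was -0.05 (95% confidence interval -0.22 to 0.12, adjusted p = 0.592 in edgeR), and -0.03 without FT_1. Its interval lies far from that of UHRF1, -1.83 to -0.90. The ratio of UHRF1 to DNMT1 within a library was 0.219, 0.290 and 0.330 in FT cells and 0.687, 0.739 and 0.669 in WT cells, so the ratio was lower in each FT library. One setting moved DNMT1 past the threshold. With a smooth trend of the fold change on gene length removed, its log2 fold change was -0.25 (adjusted p = 0.0396 in edgeR), within a range of 0.0396 to 0.788 over 16 alternatives.

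DNMT3A (ENSBTAG00000021143, chromosome 11, 73971560 to 74074893), which sets new methylation, had 3.76, 2.99 and 3.21 FPKM in the FT libraries and 2.03, 0.79 and 2.56 in the WT libraries. All FT values were above all WT values, and WT_2 lay well under the other WT libraries, with a count of 453 against 1577 in WT_1 and 1547 in WT_3. The log2 fold change was 1.05 (SE 0.41, adjusted p = 0.0903 in edgeR), which did not pass. It was 0.96 without FT_1 (SE 0.35, adjusted p = 0.0367) and 0.69 without WT_2 (SE 0.16, adjusted p = 0.0415), and edgeR called the gene in both cases. DESeq2 called it with all libraries (adjusted p = 0.0255), and the adjusted p ranged from 0.0255 to 0.176 over the 16 alternatives.

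DNMT3B (ENSBTAG00000003901, chromosome 13, 62142537 to 62176363), the other enzyme for new marks, was close to the limit of detection. Its FPKM was 0.21, 0.29 and 0.25 in the FT libraries, against 0.35, 0.32 and 0.39 in the WT libraries, from counts of 53, 56 and 54 against 95, 64 and 83. The FPKM values did not overlap, with WT cells higher, but the TMM-scaled values did. A log2 fold change of -0.31 (95% confidence interval -1.01 to 0.39, adjusted p = 0.422 in edgeR) leaves both a fall and a small rise within the interval, as does -0.19 without FT_1 (SE 0.32, adjusted p = 0.632), so no difference was detectable at this depth.

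The sum of the 3 methyltransferases was 17.4, 16.9 and 17.7 FPKM in the FT libraries and 18.2, 17.5 and 18.5 in the WT libraries. The groups overlapped in this sum. DNMT1 was most of it in every library, with 77.2%, 80.5% and 80.4% in FT_1, FT_2 and FT_3 and 86.9%, 93.7% and 84.1% in WT_1, WT_2 and WT_3. Its share was lower in each FT library.

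The TET enzymes differed in level and in change. TET2 (ENSBTAG00000017682, chromosome 6, 19898416 to 19995309) stood at 5.66, 5.29 and 4.94 FPKM in FT_1, FT_2 and FT_3, against 2.68, 2.49 and 3.3 in WT_1, WT_2 and WT_3. Each FT library was above each WT library, and the spread within a group was small beside the gap. TET2 rose by 1.06 on the log2 scale (SE 0.13, adjusted p = 0.00224 in edgeR) and by 1.03 without FT_1 (SE 0.12, adjusted p = 5.6e-05). It was called in all 16 alternatives, with log2 fold changes of 0.72 to 1.19.

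TET3 (ENSBTAG00000022381, chromosome 11, 10561669 to 10666478), the family member known from the oxidation of the paternal genome in the zygote, gave FPKM values of 0.79, 0.54 and 1.08 in the FT group, with 0.33, 0.31 and 0.37 in the WT group. All FT values were above all WT values. The FT libraries spread widely, FT_3 having a count of 397 and FT_2 of 177, while the WT libraries, with counts of 154, 106 and 137, were close together. TET3 rose by 1.42 (SE 0.30, adjusted p = 0.0137 in edgeR), and by 1.45 without FT_1 (SE 0.28, adjusted p = 0.00138). The call was lost without WT_1 (1.40, adjusted p = 0.0616), without WT_2 (1.35, adjusted p = 0.0622) and in limma on both log2(FPKM + 1) (0.42, adjusted p = 0.0754) and log2(FPKM + 0.1) (1.01, adjusted p = 0.0682).

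TET1 (ENSBTAG00000037756, chromosome 28, 24918286 to 25035716), best known from embryonic stem and germ cells, was low in both groups. Its FPKM was 0.38, 0.46 and 0.66 in the FT libraries, against 0.46, 0.3 and 0.51 in the WT libraries, and the groups overlapped. The log2 fold change was 0.41 (SE 0.33, adjusted p = 0.360 in edgeR), or 0.58 without FT_1 (adjusted p = 0.0836). Leaving out 1 library at a time gave 0.14 to 0.58, with the lowest value without FT_3.

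Summed over TET1, TET2 and TET3, the level was 6.83, 6.29 and 6.68 FPKM in the FT libraries and 3.47, 3.1 and 4.18 in the WT libraries, with no overlap. TET2 was the main part of this sum in every library, with a share of 74.0% to 84.1% in FT cells and 77.2% to 80.3% in WT cells. The ratio of summed methyltransferases to summed TET enzymes was 2.55, 2.68 and 2.64 in FT cells and 5.23, 5.64 and 4.44 in WT cells. Each FT library was lower than each WT library in this ratio, in which the upper sum overlapped between groups and the lower one did not. These are amounts of RNA, and neither enzyme activity nor methylation was analysed here.

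**Figure D2:**
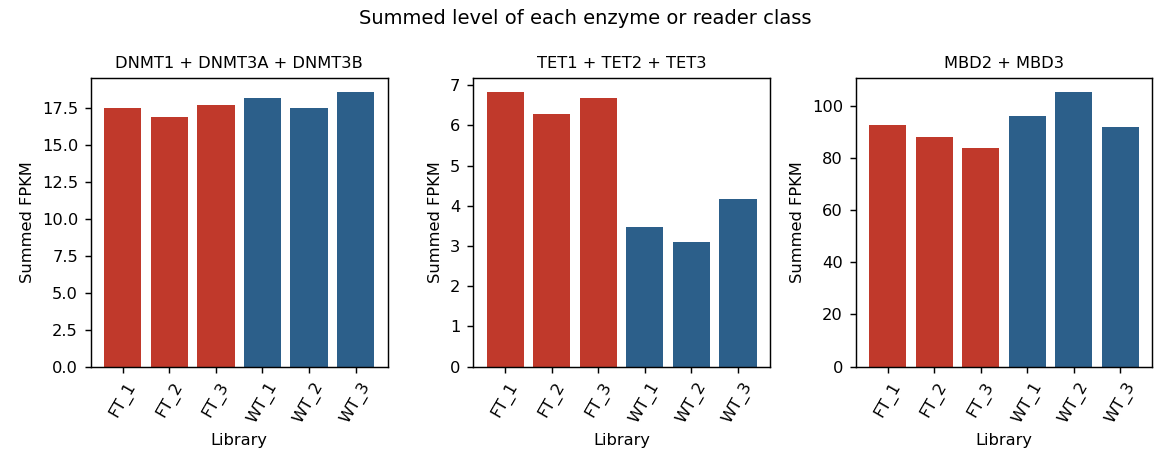
Summed FPKM of the methyltransferases, the TET enzymes and the readers MBD2 and MBD3 in each library (1 bar per library, FT in red and WT in blue, each axis from 0). The TET sum is 6.29 or more in each FT library and 4.18 or less in each WT library, while the methyltransferase sum overlaps between groups.

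The DNMT and TET genes were also measured by RT-qPCR, and their proteins by Western blot, in the study of these cells. Neither assay was analysed here, and the values above are RNA levels from sequencing alone. Of those genes, TET2 and TET3 passed the test on the counts. Their RT-qPCR primers are shown so that the part of the transcript behind that assay can be found. Each is written 5′ to 3′ as listed in the supplement of the study, and its position in the transcript was not analysed here.
TET2 sense: tcagtccaacccctccaatc
TET2 antisense: actgtaccttgagactgccc
TET3 sense: aacggcttccactccaagta
TET3 antisense: caaactcagcaccaccgtag

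TDG (ENSBTAG00000021633, chromosome 5, 67632504 to 67653338), which excises formyl- and carboxylcytosine made by TET enzymes, had 11.07, 9.37 and 10.36 FPKM in the FT libraries and 9.79, 10.45 and 10.36 in the WT libraries. The groups overlapped. Its log2 fold change was 0.17 (95% confidence interval -0.05 to 0.38, adjusted p = 0.178 in edgeR) and 0.12 without FT_1 (adjusted p = 0.250). It was 0.017 when only the total count was used, and 0.006 and 0.007 in limma on log2(FPKM + 1) and log2(FPKM + 0.1). The ratio of TET2 to TDG within a library was 0.511, 0.565 and 0.477 in FT cells and 0.274, 0.238 and 0.319 in WT cells, higher in each FT library.

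MBD2 and MBD3 had the highest levels of the 10 genes. MBD2 (ENSBTAG00000037457, chromosome 24, 53580798 to 53648542) binds methylated CpG sites and recruits NuRD. Its FPKM was 58.01, 56.42 and 56.49 in the FT libraries, against 73.95, 79.13 and 69.88 in the WT libraries. All FT values were under all WT values, and the FT libraries were nearly equal. The log2 fold change was -0.22 (SE 0.08, adjusted p = 0.0597 in edgeR), just short of the threshold. The value without FT_1 was -0.23 (SE 0.07, adjusted p = 0.0187), which passed, and the adjusted p ranged from 0.00887 to 0.168 over the 16 alternatives.

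MBD3 (ENSBTAG00000038409, chromosome 7, 43960115 to 43968745), a NuRD subunit that binds methylated DNA weakly or not at all, stood at 34.5, 31.5 and 27.2 FPKM in FT_1, FT_2 and FT_3, against 22.0, 26.07 and 21.8 in WT_1, WT_2 and WT_3. All FT values were above all WT values, although FT_3 and WT_2 were close. MBD3 rose by 0.57 (SE 0.12, adjusted p = 0.0116 in edgeR) and by 0.51 without FT_1 (SE 0.10, adjusted p = 0.00134). The call was narrowly lost without WT_1 (0.53, adjusted p = 0.0578) and without WT_3 (0.53, adjusted p = 0.0513). MBD2 and MBD3 assemble into separate NuRD complexes. The ratio of MBD3 to MBD2 was 0.595, 0.559 and 0.482 in FT cells and 0.297, 0.329 and 0.312 in WT cells, so that every FT library was above every WT library.

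**Figure D3:**
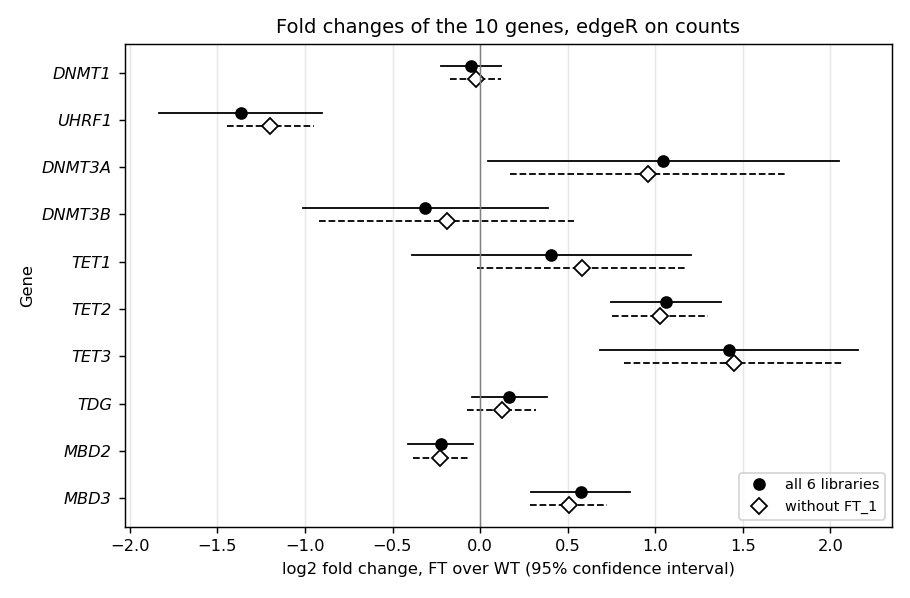
log2 fold change of each gene, FT over WT, from edgeR on the counts with 95% confidence intervals (filled circles and solid lines for all 6 libraries, open diamonds and dashed lines without FT_1). UHRF1 lies at -1.37 and TET2, TET3 and MBD3 lie at 1.06, 1.42 and 0.57, and all 10 genes have the same sign without FT_1.

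In 8 of the 10 genes the FPKM values of FT and WT cells did not overlap, where the same held for 58.7% of all tested genes. For TMM-scaled CPM it was 7 of 10, against 57.7%. TET1 overlapped on both scales, TDG on the FPKM scale alone, and DNMT1 and DNMT3B after TMM scaling alone. Under the threshold in the methods of the study, an unadjusted p under 0.05 with a log2 fold change over 1 or under -1, DNMT3A, TET2 and TET3 were higher (10.2% of all genes) and UHRF1 was lower (8.96% of all genes). Without WT_2, only TET3 was higher at this threshold, with TET2 at 0.98, where 8.31% of all genes were higher.

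The order of the levels was nearly the same in both groups. By mean FPKM in FT cells it ran MBD2 (57.0), MBD3 (31.1), DNMT1 (13.7), TDG (10.3), TET2 (5.30), UHRF1 (3.85), DNMT3A (3.32), TET3 (0.803), TET1 (0.50) and DNMT3B (0.25). Neighbours in this order did not overlap, apart from UHRF1 with DNMT3A and TET3 with TET1. In WT cells UHRF1 (11.1) stood in the fourth place, beside TDG (10.2) with which it overlapped, and TET3 (0.337) was the last. There TET2 (2.82) overlapped DNMT3A (1.79), and TET1 (0.423), DNMT3B (0.353) and TET3 overlapped in turn. MBD2, MBD3 and DNMT1 took the same places in both groups, with means of 74.3, 23.3 and 15.9 in WT cells.

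UHRF1 is a gene of the S phase, so the genes of replication and proliferation were set beside it. Of 15 such genes, 13 fell in FT cells, where 18.9% of all tested genes did, and the median log2 fold change was -1.28. Those with the largest falls were the mitotic cyclin gene CCNB1 (-2.65, SE 0.23), the cyclin gene CCNA2 (-1.78, SE 0.28) and RRM2 (-1.72, SE 0.24), a subunit of ribonucleotide reductase. MCM2 (-0.62, SE 0.26, adjusted p = 0.110) and E2F1 (-0.27, SE 0.42, adjusted p = 0.638), named here because they were the exceptions, did not pass in edgeR. The summed FPKM of the list was 162, 235 and 229 in FT cells and 565, 670 and 552 in WT cells. Without FT_1, 14 of 15 fell, where 31.5% of all tested genes did, with MCM2 among them (-0.37, SE 0.10), while the estimate for E2F1 turned to 0.09 (SE 0.12, adjusted p = 0.509).

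PCNA, the replication clamp, gave FPKM values of 17.1, 21.05 and 20.1 in the FT group, with 57.5, 74.0 and 52.9 in the WT group, and fell by 1.50 (SE 0.16, adjusted p = 0.00163 in edgeR). The FT libraries were all far under the WT libraries. MKI67, a marker of cycling cells, had 5.1, 10.55 and 10.6 in FT cells and 24.1, 26.3 and 25.7 in WT cells, and fell by 1.37 (SE 0.30, adjusted p = 0.0145). FT_1 was the lowest for MKI67 as it was for UHRF1. The ratio of UHRF1 to PCNA was 0.172, 0.187 and 0.233 in FT cells and 0.188, 0.163 and 0.197 in WT cells. In this ratio the groups overlapped. By contrast, the ratio of DNMT1 to PCNA was 0.786, 0.645 and 0.708 in FT cells and 0.274, 0.221 and 0.295 in WT cells, higher in each FT library. Relative to PCNA, the groups thus overlapped for UHRF1 and not for DNMT1. The log2 fold changes of the proliferation list ran from -2.65 to -0.27, so a ratio to another of its genes can differ. The part of proliferation in the fall of UHRF1 was not tested.

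**Figure D4:**
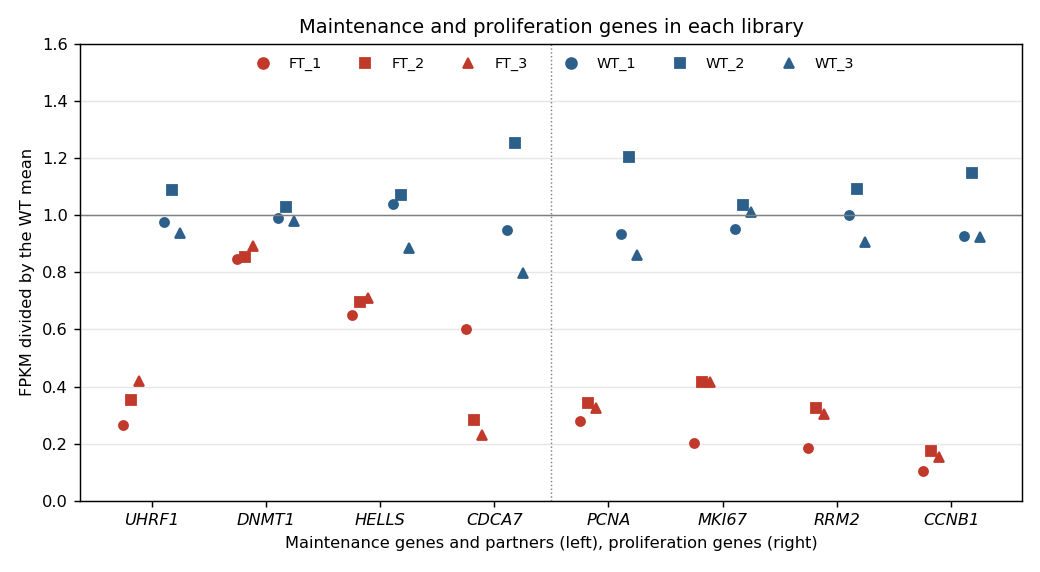
FPKM in each library divided by the WT mean of the same gene (linear axis from 0) for the maintenance genes UHRF1 and DNMT1 with the partners HELLS and CDCA7 on the left, and the proliferation genes PCNA, MKI67, RRM2 and CCNB1 on the right. FT values of UHRF1 lie with those of PCNA and MKI67, while DNMT1 lies closer to its WT mean.

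Of 18 tested partners and regulators of the methyltransferases, 4 rose and 3 fell, close to the 20.1% and 18.9% of all tested genes, with a median log2 fold change of 0.12 (7 rose and 4 fell without FT_1, where 30.6% and 31.5% of all tested genes did). NSD1, which sets the histone mark that guides DNMT3A to intergenic DNA, had 13.3, 10.7 and 11.1 FPKM in the FT libraries and 5.92, 5.34 and 6.61 in the WT libraries. Like DNMT3A it was higher in every FT library, and it rose by 1.13 (SE 0.12, adjusted p = 0.00162 in edgeR). KDM2A (0.58, SE 0.07), a CpG island protein, and EHMT2 (0.40, SE 0.06), a histone H3 methyltransferase, rose too.

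CDCA7 and HELLS form a remodelling complex needed to keep heterochromatin methylated. CDCA7 stood at 4.15, 1.95 and 1.58 FPKM in FT_1, FT_2 and FT_3, against 6.54, 8.62 and 5.49 in WT_1, WT_2 and WT_3, and fell by 1.27 (SE 0.39, adjusted p = 0.0458 in edgeR). FT_1 was the highest FT library here, and without it CDCA7 fell by 1.79. HELLS, with 6.11, 6.54 and 6.68 against 9.79, 10.1 and 8.34, fell by 0.39 (SE 0.11, adjusted p = 0.0321). Both were under every WT library in every FT library. NSD2, another histone methyltransferase, fell by 0.51 (SE 0.09). UHRF2, the paralog of UHRF1, gave FPKM values of 40.2, 28.9 and 30.2 in the FT group, with 39.6, 35.1 and 33.7 in the WT group (log2 fold change 0.03, SE 0.14, adjusted p = 0.887). FT_1 lay above every WT library here and FT_2 and FT_3 under every one, and without FT_1 the estimate turned to -0.12 (SE 0.08, adjusted p = 0.220). The difference between the paralogs was not tested. TRIM28, the most abundant gene of the list, had a log2 fold change of 0.04 (SE 0.16), or -0.15 without FT_1 (SE 0.08, adjusted p = 0.102). DNMT3L was not analysed here.

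Of 8 tested partners and cofactors of the TET enzymes, 1 rose, the vitamin D receptor gene VDR (0.91, SE 0.23, adjusted p = 0.0252 in edgeR), where 20.1% of all tested genes rose. The median log2 fold change of this list was -0.15. Without FT_1, 2 rose and 1 fell, where 30.6% and 31.5% of all tested genes did. IDH3A, the most abundant of them and a subunit of the enzyme that makes the TET cosubstrate 2-oxoglutarate, had a log2 fold change of -0.25 (SE 0.12, adjusted p = 0.154), or -0.16 without FT_1.

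Of 15 tested genes of base excision and related repair, the setting in which TDG works, 2 rose and 2 fell, where 20.1% and 18.9% of all tested genes did (median log2 fold change 0.03). Without FT_1, 5 rose and 4 fell, near the 30.6% and 31.5% of all tested genes (median -0.05). The glycosylase genes NEIL1 (1.01, SE 0.26) and NEIL2 (0.95, SE 0.25), whose products help TDG to turn over, rose. NEIL3 (-1.98, SE 0.21), a glycosylase gene of proliferating cells, and PARP1 (-0.76, SE 0.11) fell. MBD4, a glycosylase with a methyl-CpG binding domain, had a log2 fold change of 0.00 (SE 0.16), and APEX1, the most abundant gene of the list, of -0.17 (SE 0.13). Without FT_1 these were 0.11 and -0.05, neither of which passed.

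Among 8 other genes of the MBD family and of readers of methylated DNA, 4 rose, where 20.1% of all tested genes did, with a median log2 fold change of 0.43. Without FT_1, 5 rose, where 30.6% of all tested genes did, with a median of 0.33. MBD6, whose MBD domain is not known to bind methylated DNA, had 12.2, 11.1 and 12.1 FPKM in the FT libraries and 3.54, 4.52 and 4.75 in the WT libraries, and rose by 1.62 (SE 0.14, adjusted p = 9.5e-04 in edgeR). All FT libraries were far above all WT libraries. MBD4 belongs to this list too. ZBTB4, the most abundant gene of this list in each FT library, rose by 1.31 (SE 0.11) and ZNF445, a zinc finger gene that protects imprints, by 0.42 (SE 0.13), narrowly past the threshold. With limma on log2(FPKM + 1), 2 of these genes passed as higher, where 1837 of 12247 tested genes did.

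Of 12 subunits of NuRD, the complex that MBD2 and MBD3 join, 4 rose and 2 fell, where 20.1% of all tested genes rose and 18.9% fell. The median log2 fold change was 0.16. Without FT_1, 4 rose and 3 fell, where 30.6% and 31.5% of all tested genes did, with a median of -0.10. MTA1 (1.03, SE 0.08), CHD3 (0.73, SE 0.12) and GATAD2B (0.68, SE 0.08) rose. RBBP4 (-0.67, SE 0.09), a histone chaperone that is also part of chromatin assembly in S phase and the most abundant subunit, and the deacetylase gene HDAC1 (-0.46, SE 0.08) fell.

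Of 9 tested genes for the supply of methyl groups 1 rose, AHCY (0.32, SE 0.08, adjusted p = 0.0270 in edgeR), whose product removes the inhibitor that methyltransferases release, where 20.1% of all tested genes rose. The median log2 fold change of this list was 0.06. Without FT_1, 3 rose and 1 fell, where 30.6% and 31.5% of all tested genes did, with a median of -0.06. The gene that fell, SHMT1, was at 0.02 FPKM in FT_2 and 0 in FT_3, against 0.09 to 0.14 in WT cells. It passed the filter on low counts through the WT libraries alone, so no conclusion is drawn from its call. SHMT2, the most abundant by mean FPKM in FT cells, stood at 254.8 FPKM in FT_1 and at 85.0 and 85.4 in the other FT libraries, with 99.5 to 107.7 in WT cells, and its log2 fold change of 0.61 (SE 0.44) turned to -0.11 without FT_1.

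**Figure D5:**
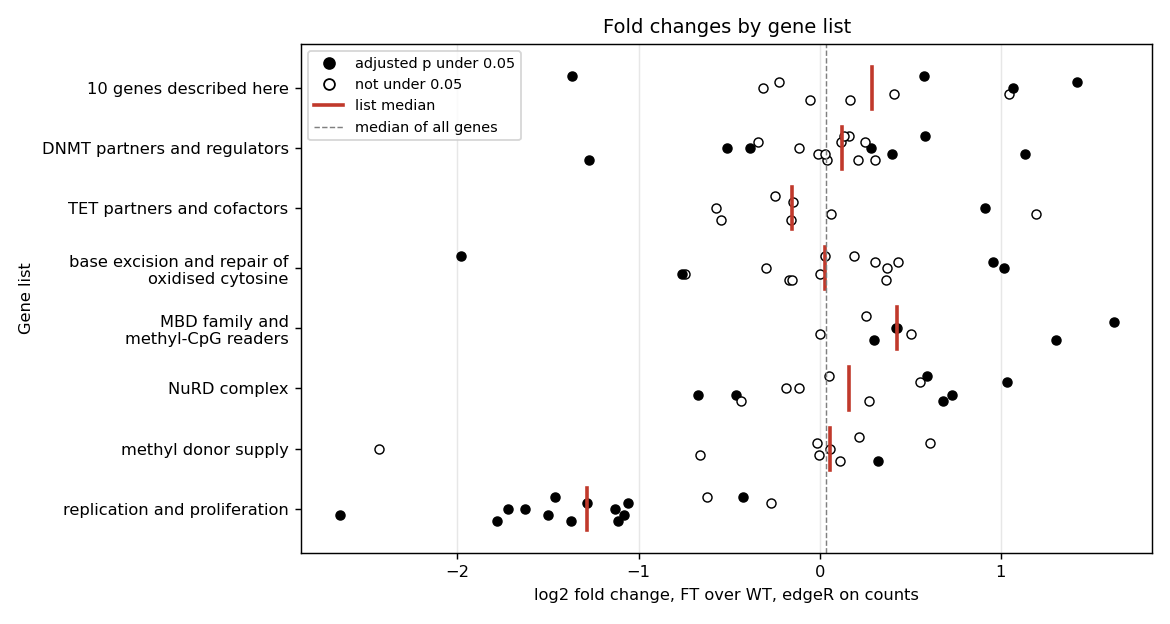
log2 fold change of each tested gene, FT over WT, by gene list (filled points passed an adjusted p under 0.05 in edgeR, red bars are list medians, the dashed line is the median of all genes at 0.03). The proliferation list lies to the left with a median of -1.28, while the lists of methylation partners and readers hold points on both sides or near 0, apart from the list of the MBD family and readers, with a median of 0.43.

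Genes that somatic cells keep silent by promoter methylation were near the limit of detection. Of the 11 such germline genes in the table, 9 had an FPKM under 1 in every library, and 5 had enough counts to be tested. None of these 5 passed in edgeR, either adjusted or at an unadjusted p under 0.05, nor did MAEL or SYCP3, those with a value in limma, pass there. DESeq2 called 2 genes of the list higher, where 3251 of 17263 tested genes were called higher. Neither of these 2 was among the 5 that edgeR tested. Some of the 17263 genes had no adjusted p in DESeq2 and so could not be called. MAEL, the most abundant by mean FPKM in FT cells, had an FPKM of 2.49 in FT_2 and 3.04 in FT_3 but 0 in FT_1 and in each WT library, and with all 6 libraries it was not kept by the filter on low counts. Without FT_1, 2 of 6 tested genes of the list rose and 2 fell, where 30.6% and 31.5% of all tested genes did. The called genes were at 0.08 FPKM or less in the group where they were low. They passed the filter on low counts through the other group alone, so no conclusion is drawn from their calls.

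The study also measured promoter methylation of the metabolic genes PKM, PFKM, IDH2, MDH2, NDUFS1 and ATP5F1C. Of these 6 genes, 4 were called lower in FT cells in edgeR, where 18.9% of all tested genes were. The falls were 0.96 for PFKM (SE 0.22), 0.84 for NDUFS1 (SE 0.09), 0.72 for MDH2 (SE 0.10) and 0.65 for ATP5F1C (SE 0.11) on the log2 scale. DESeq2 called 5 lower, where 2979 of 17263 tested genes were, although some of the 17263 had no adjusted p. With limma on log2(FPKM + 1), 6 were called lower, where 3573 of 12247 tested genes were. PKM (-0.50, SE 0.19, adjusted p = 0.0819 in edgeR) and IDH2 (-0.15, SE 0.08, adjusted p = 0.183) did not pass, and PKM passed without FT_1, where 31.5% of all tested genes were called lower. The study chose these genes in these cells, so their direction is not independent evidence. RPLP0, the reference gene of its RT-qPCR, stood at 2615, 1576 and 1555 FPKM in FT_1, FT_2 and FT_3, against 2413, 2487 and 2659 in WT_1, WT_2 and WT_3. FT_1 lay with the WT libraries and FT_2 and FT_3 lay lower. Its log2 fold change was -0.24 (SE 0.22, adjusted p = 0.420), or -0.52 without FT_1 (adjusted p = 8.7e-05).

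The genes most like UHRF1 and TET3 over the 6 libraries were looked up by Pearson's r of log2 CPM among 10839 genes, as a description of these libraries only. ECHDC1, CENPN and CLDN15 were the most like UHRF1, and 1038 genes had r over 0.95 with it. The kinetochore gene CENPN, for example, averaged 3.23 FPKM in the FT libraries and 15.4 in the WT libraries. ECHDC1 averaged 25.5 and 38.2, a log2 fold change of -0.42, since r takes no account of the size of a change. DVL2, MDC1 and SNAP23 were the most like TET3, with 106 genes over 0.95. Many genes thus followed the pattern of UHRF1, high in all WT libraries and low in all FT libraries, and fewer followed TET3, which also varied among the FT libraries.

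The label of the cells was checked against marker genes. The counts of called markers stand beside 20.1% of all tested genes called higher and 18.9% called lower, or 30.6% and 31.5% without FT_1. Each of 11 fibroblast markers had an FPKM of 22.8 or more in all 6 libraries, and their sum was 16050 in FT_1, 21808 in FT_2, 21145 in FT_3 and 21403 to 21875 in WT cells. The most abundant was FN1 in FT_1 (7499 FPKM), DCN in FT_2 and VIM in FT_3 and each WT library. COL1A1, COL1A2, COL3A1, VIM, PDGFRB, DCN, LUM and S100A4 were lower in FT_1 than in any WT library. Of the 11 markers 2 rose, PDGFRA (1.06, SE 0.17) and FN1 (3.89, SE 0.67, or 2.88 without FT_1), and without FT_1 6 rose and 2 fell. VIM stood at 1244 FPKM in FT_1, 3850 in FT_2 and 4171 in FT_3, under the 7312 to 8178 of WT cells. The sum of smooth muscle markers was higher in every FT library, at 2488, 3758 and 3620 FPKM against 1095, 1076 and 1201, and 5 of 6 rose (6 without FT_1). DES (7.44, SE 1.17), ACTG2 (4.69, SE 0.16) and CNN1 (3.05, SE 0.18) had the largest rises. DES was at 0.07 FPKM or less in WT cells and passed the filter on low counts through the FT libraries alone, so no conclusion is drawn from its call. ACTA2 was the most abundant apart from WT_2, where TAGLN was. The marker that did not pass with all 6 libraries was MYH11, whose 0.07 FPKM in FT_1 lay under the 0.12 to 0.18 of WT cells, while FT_2 (1.58) and FT_3 (1.46) lay above them.

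Markers of other cell types were found at lower levels. The epithelial sum was 310 in FT_1, 11.04 in FT_2, 10.8 in FT_3 and 7.83 to 13.9 in WT cells, with KRT5 the most abundant in FT_1 and CDH1 in the others, and the mesothelial sum was 199.7, 45.0 and 46.3 in FT cells and 2.32, 3.48 and 3.34 in WT cells, nearly all of it MSLN (5.26, SE 0.74, or 4.21 without FT_1). None of 4 tested epithelial markers passed in edgeR with all 6 libraries (3 at an unadjusted p under 0.05) or in limma, and DESeq2 had a value for CDH1 alone among the 4, which did not pass. Without FT_1, edgeR called KRT5, KRT8 and KRT18 higher in FT cells, from 2.57 FPKM or less in FT_2 and FT_3 and 0 in each WT library. These genes passed the filter on low counts through the FT libraries alone, so no conclusion is drawn from their calls. EPCAM was 0 outside FT_1. MSLN passed in edgeR, with and without FT_1, in DESeq2 and in limma. The other mesothelial markers in the table did not follow it. WT1 was 0 in each FT library and 0.05 FPKM or less in WT cells, and UPK3B, at 1.03 FPKM in FT_1, 0.1 in FT_2, 0.09 in FT_3 and 0.2 to 0.25 in WT cells, did not pass in edgeR (adjusted p = 0.476), with an estimate that turned from 0.94 to -1.06 without FT_1 (adjusted p = 0.131). The part of cells with smooth muscle, epithelial or mesothelial markers in the changes of UHRF1, TET2, TET3 and MBD3 was not tested. Of 3 tested immune markers 1, CD68, fell (-1.24, SE 0.29), as did CD14 without FT_1 (adjusted p = 0.0115 in edgeR). The sum of all 5 immune markers with a value, tested or not, was 3.52 to 4.25 in FT cells and 6.72 to 8.06 in WT cells. Endothelial markers summed to 1.52 or less in every library, with each of 5 under 1 FPKM. The single matched gene for skeletal muscle (MYF5) was at 1.93 FPKM or less and that for pluripotent and germ cells (PRDM1) at 1.42 or less, and markers of neural crest and glia, mostly S100B, summed to 4.29 to 12.9. No gene of these last 4 lists passed in edgeR with all 6 libraries, adjusted or not, or in DESeq2, while limma, which had no value for the endothelial markers, called MYF5 lower. Without FT_1, edgeR called PECAM1 (adjusted p = 4.5e-04), MYF5 (adjusted p = 0.0129) and S100B (adjusted p = 0.00123) lower and PRDM1 (adjusted p = 0.00146) higher.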

How the data were processed

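Counts per gene and FPKM values were deposited in 1 table, with a column of each for every library. The authors obtained these counts and FPKM values from paired-end poly(A) reads with HISAT, StringTie and edgeR. The submitters' processing notes name HISAT2 2.0, StringTie 1.3.0, Bowtie 0.12.2 and the build mm8, a mouse assembly. The gene identifiers are bovine, so the build behind the coordinates is not established. All 10 symbols were found in the RefSeq gene table of assembly ARS-UCD2.0, each on the same chromosome and overlapping the interval of the deposited table. Reads carried no molecular identifiers, so counting error is a lower limit, and how reads shared by overlapping genes were assigned is not given in the sources used here.

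The counts were fitted with edgeR 4.0.16 in R 4.3.3 (TMM factors, filterByExpr, quasi-likelihood test, group only, 2 groups of 3), with Benjamini-Hochberg adjustment over all genes tested. Alternatives were other scalings and filters, DESeq2 1.42.0, limma 3.58.1 on log2(FPKM + 1) and log2(FPKM + 0.1) for a mean FPKM of at least 0.5, removal of a length trend, a replicate block and leaving out each library. The code was tested on simulated data. An exact permutation test of 3 against 3 cannot give a p under 0.10 and was not used. The 10 genes and the 19 other lists were chosen with earlier results of these data known. The text names all 10 genes and may name, for each other list, up to 3 of the largest rises and falls with an adjusted p under 0.05 and its most abundant gene, the special partners UHRF2, HELLS, DNMT3L, MBD4 and PCNA, with MKI67, the genes with measured promoters, RPLP0 and the 3 genes most like the members with the largest rise and fall. MCM2, E2F1, SYCP3, SHMT1 and the cell-type markers outside this rule were named after their values were seen. No test was made over a list as a whole.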

Additional observations from a re-analysis of the deposited data

How the results depend on the processing

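No fold change of the 10 genes changed sign in up to 16 alternatives, and the calls of UHRF1 and TET2 held in all of them. TET3 fell short in limma on log2(FPKM + 1) (0.42, adjusted p = 0.0754) and log2(FPKM + 0.1) (1.01, adjusted p = 0.0682). MBD2 passed with upper-quartile factors (-0.25), total count (-0.38), a mean CPM of at least 1 (-0.23), DESeq2 (-0.23) and both limma fits (-0.38 and -0.38), which made 2 members lower in each, as did DNMT1 with the length trend removed (-0.25). Of all genes, 2692 and 3394 of 13482 were then lower with upper-quartile factors and total count, and 2481 of 11836 with the CPM filter. In DESeq2, where not all 17263 tested genes had an adjusted p, the same count was 2979. It was 3573 and 3529 of 12247 in the limma fits. With the length trend removed it was 2556 of 13482, against 2547 of 13482 in the main fit. DNMT3A passed in DESeq2 (1.05). Leaving out 1 library at a time gave log2 fold changes of -0.09 to -0.03 for DNMT1, 0.69 to 1.39 for DNMT3A, 1.13 to 1.63 for TET3, -0.27 to -0.18 for MBD2 and 0.51 to 0.66 for MBD3, with 1 to 4 members higher and 1 to 2 lower. At the threshold of the study 1 member was higher with total count, 0 in limma on log2(FPKM + 1), 1 on log2(FPKM + 0.1), 1 with the length trend removed and 1 to 3 with a library left out. The main fit had 3 such members. Genes higher at that threshold numbered 1378 of 13482 in the main fit, 1087 with total count and 1393 with the length trend removed. They numbered 462 and 749 of 12247 in the limma fits, and 1150 to 1521 with a library left out. Over all genes, leaving out a library gave 1516 to 4215 higher and 1531 to 4337 lower, the highest without FT_1 and the lowest without WT_1, with 1613 higher without WT_2 and 1796 without WT_3, against 2714 and 2547. The median of all genes shifted by -0.15 with total count and by -0.16 and -0.19 in limma; relative to it, MBD2 was at -0.26, -0.25 and -0.23 and DNMT1 at -0.09, -0.07 and -0.06. Fetuses with the same number share only that number (deviations correlated at -0.02 to 0.02 over genes). With a replicate block 1838 genes were higher and 1741 lower, and 3 members higher and 1 lower, the same 4, with UHRF1 at -1.39, TET2 at 1.07, TET3 at 1.37 and MBD3 at 0.57. DNMT3B and TET1 fell under the FPKM filter of limma and had no value there. Causes of these shifts were not tested.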

Other observations

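In the supplementary primer lists of the study, the sense and antisense primers are the same sequence in 2 of 33 pairs, those of RPLP0, the RT-qPCR reference gene (ggcgacctggaagtccaact), and 1 of the MDH2 promoter (agcccgtcttcttccacctctc).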
